A study of Mus musculus with 6 samples.

Results

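Fibrinogen, the soluble precursor of the fibrin clot, is assembled from chains encoded by Fga (the Aα chain, ENSMUSG00000028001), Fgb (the Bβ chain, ENSMUSG00000033831) and Fgg (the γ chain, ENSMUSG00000033860). The transcripts of these 3 genes, of 25302 rows in the gene table, were followed in biliary epithelium from mouse liver, that is, in the lining of bile ducts. The 3 genes were taken by symbol, and they were chosen by their normalized counts, which differed in this same comparison of Sox9cKO with Control. Their levels and differences are therefore given as a description, without a test. The Control group (n = 3) carried floxed alleles of Sox9 (Sox9fl/fl), and the Sox9cKO group (n = 3) carried the same floxed alleles together with the AlbCre transgene (Sox9fl/fl:AlbCre+/-). Both groups thus shared the floxed alleles, and only Sox9cKO carried Cre. AlbCre places the recombinase under regulatory sequence of albumin, a gene of the hepatocyte lineage, so the transgene is not limited to bile duct cells. Age, sex and the way the cells were isolated were not given in the sources used here. Nothing stated whether the samples of a group came from separate animals, so p-values below measure only the spread between these samples.

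Fibrinogen circulates as a dimer of identical units, each of an Aα, a Bβ and a γ chain joined by disulfide bonds, and the chains are put together in the endoplasmic reticulum. Hepatocytes are its main source, and interleukin-6 with glucocorticoid raises its synthesis in the acute phase response. Thrombin cuts short peptides from the Aα and Bβ chains so that fibrin polymerises, and plasmin dissolves the polymer. Sox9 encodes a transcription factor of biliary epithelium.

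The genes lie next to each other on mouse chromosome 3, and the 250 bases before the start of each are shown. What part these bases have in the levels of the chains was not tested. The sequences are RefSeq's, on build GRCm38.p6, each written 5′ to 3′ on the strand of its gene. Capitals mark CTGGGA, a core described for interleukin-6 response elements of fibrinogen genes, and ATTAAC, the reverse complement of the HNF1 core GTTAAT.
Fga, chr3:83025903-83026152, forward strand: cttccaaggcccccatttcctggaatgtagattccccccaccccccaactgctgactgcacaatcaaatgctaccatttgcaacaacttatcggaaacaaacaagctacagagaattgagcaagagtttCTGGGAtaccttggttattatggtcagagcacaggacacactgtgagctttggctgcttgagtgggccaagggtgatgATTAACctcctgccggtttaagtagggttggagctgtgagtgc
Fgb, chr3:83049864-83050113, reverse strand: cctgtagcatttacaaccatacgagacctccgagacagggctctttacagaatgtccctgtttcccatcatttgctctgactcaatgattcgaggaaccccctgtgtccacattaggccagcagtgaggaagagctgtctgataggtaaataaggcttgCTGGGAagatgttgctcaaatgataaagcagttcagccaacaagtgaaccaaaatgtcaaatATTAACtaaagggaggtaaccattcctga
Fgg, chr3:83007474-83007723, forward strand: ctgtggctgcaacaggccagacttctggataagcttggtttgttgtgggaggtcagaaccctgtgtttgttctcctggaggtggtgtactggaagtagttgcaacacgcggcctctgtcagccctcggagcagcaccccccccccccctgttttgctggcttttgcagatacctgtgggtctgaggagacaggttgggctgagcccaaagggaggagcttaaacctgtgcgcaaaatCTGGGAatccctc
CTGGGA was present in all 3 windows, from position -121 to -116 in Fga, from -91 to -86 in Fgb and from -13 to -8 in Fgg, counted back from the start. Of 32851 RefSeq promoter windows of the same length, 27.0% held CTGGGA on either strand. The HNF1 core GTTAAT was found at -43 to -38 in Fga and at -29 to -24 in Fgb, not in Fgg, against 6.43% of all windows. The STAT motif TTCNNNGAA was found at -234 to -226 in Fga and at -162 to -154 in Fgb, not in Fgg, against 7.02% of all windows. The C/EBP motif TTNCNNAA occurred at -135 to -128 in Fga and at both -206 to -199 and -80 to -73 in Fgb, not in Fgg, against 36.8% of all windows. Neither the SOX core AACAAT (9.42% of all windows) nor TATAAA (12.4%) was in any of the 3. All motifs were searched on both strands, none of these matches overlapped another, and a match is a run of letters, not a shown binding site.

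Samples held 11883496 to 16191990 reads over the gene table, with 23743 to 25084 genes having a read. Sox9, the targeted gene, had a normalized read count (reads divided by one size factor per sample) of 6182 ± 127 (SD, n = 3) in Control and 3289 ± 108 in Sox9cKO, a log2 change of -0.91 (SE 0.095, limma adjusted p = 0.00501). Across 17153 genes with a mean normalized count of at least 10, limma called 349 higher (2.03%) and 161 lower (0.939%) in Sox9cKO at a Benjamini-Hochberg adjusted p below 0.05. With the replicate number as a block, which pairs the samples by number, it called 868 higher (5.06%) and 513 lower (2.99%). The labels state no such pairing. Libraries stood apart in an endothelial gene: Stab2, a scavenger receptor of liver sinusoidal endothelium, was at 3982, 12848 and 424 in the Control replicates and at 9565, 14073 and 2140 in the Sox9cKO replicates. Log2 changes below are on the scale of log2 of the normalized count plus 1.

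All 3 chains were several-fold higher in Sox9cKO than in Control, with no overlap between the groups for any chain. The change was 7.49-fold for Fga, 11.9-fold for Fgb and 6.95-fold for Fgg, as ratios of group means. That 3 of 3 chains lay among the genes called higher (2.03% of all tested, or 5.06% with the block), and among the 13.4% whose every Sox9cKO value exceeded every Control value, follows from their choice by this comparison, and nothing is read from it. In bulk samples a different number of cells that make a transcript and a different amount of that RNA per cell cannot be told apart.

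Fga encodes the longest chain, whose amino end carries fibrinopeptide A. Control replicates 1 to 3 had normalized counts of 683, 383 and 268, while those of Sox9cKO stood at 3948, 2877 and 3175. Control replicate 1 was the highest of its group and Control replicate 3 the lowest, and the lowest Sox9cKO sample was 4.21 times the highest Control sample. Group means were 445 ± 214 and 3333 ± 553 (SD, n = 3 each), a log2 change of 3.00 (SE 0.32). These values rested on 233 to 813 reads per Control sample and 2805 to 3968 per Sox9cKO sample.

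Fgb encodes the chain that carries fibrinopeptide B. It was at 67.2, 68.7 and 32.3 in the Control replicates and at 603, 645 and 749 in the Sox9cKO replicates. Control replicates 1 and 2 lay together and replicate 3 lay lower, whereas the 3 Sox9cKO values differed less in proportion. The means were 56.1 ± 20.6 and 666 ± 75.5, a log2 change of 3.62 (SE 0.30), and the lowest Sox9cKO sample stood 8.78 times above the highest Control sample. Fgb had the fewest reads of the chains, 80, 74 and 28 in Control. The exact Poisson 95% intervals for the Control normalized counts were 53.3 to 83.7, 53.9 to 86.2 and 21.4 to 46.6, which cover counting error only. The interval of replicate 3 thus did not meet those of the other Control samples. Intervals of Sox9cKO replicates 1 to 3 were 556 to 653, 597 to 695 and 693 to 809, so those of replicates 1 and 3 did not meet either.

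Fgg encodes the chain that holds the main binding site for platelet integrin αIIbβ3. Control replicates had 408, 238 and 185 normalized counts, and Sox9cKO replicates had 1989, 1742 and 2043. As for Fga, Control replicate 1 was highest and replicate 3 lowest, with a 4.27-fold gap between the lowest Sox9cKO and the highest Control value. Means were 277 ± 116 in Control and 1925 ± 161 in Sox9cKO, a log2 change of 2.87 (SE 0.27). Each chain varied more among Control samples than among Sox9cKO samples on the log2 scale. The SDs were 0.68 against 0.23 for Fga, 0.61 against 0.16 for Fgb and 0.58 against 0.12 for Fgg.

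**Figure D1:**
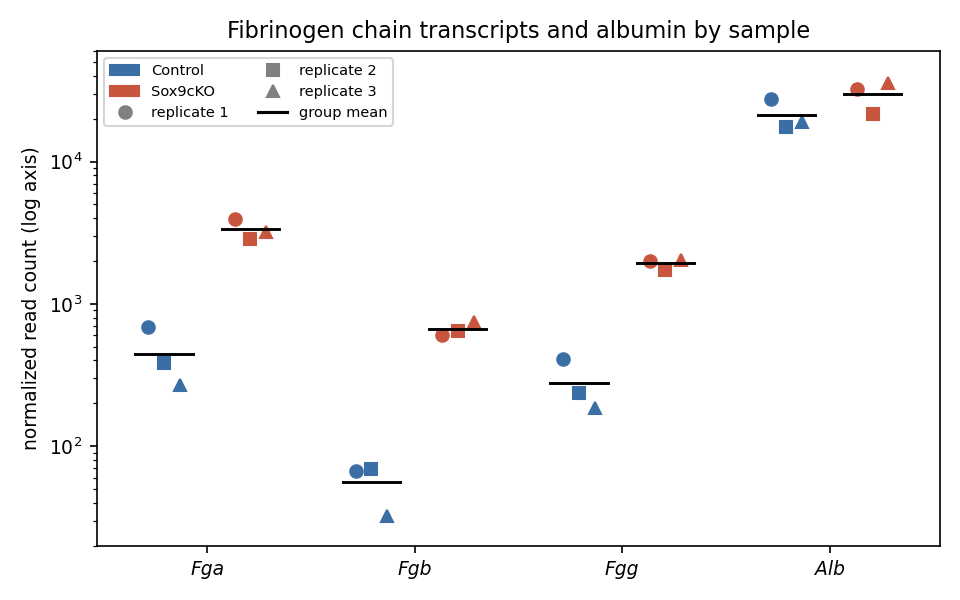
Normalized read counts (log axis) of Fga, Fgb, Fgg and, for comparison, albumin (Alb) in each of the 6 samples. Blue marks Control, red marks Sox9cKO, symbols give the replicate number and bars the group mean. The chain values of the groups are separate, which follows from the choice of the genes, and the Alb values overlap.

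Levels of different genes were compared per kilobase (kb) of exon, with lengths from GENCODE M21 of 3010 bases for Fga, 3810 for Fgb and 2093 for Fgg. In Control, the normalized count per kb was 148 ± 71.2 for Fga, 132 ± 55.5 for Fgg and 14.7 ± 5.41 for Fgb. The group means of Fga and Fgg did not differ beyond the spread between samples, and Fgb lay well below both. Within each Control sample, though, Fga was above Fgg, at 227 against 195, 127 against 114 and 89.2 against 88.6. In Sox9cKO the levels per kb were 1107 ± 184 for Fga, 920 ± 76.8 for Fgg and 175 ± 19.8 for Fgb, in the same order of means. The ranges of mean ± SD of Fga and Fgg overlapped only narrowly, and Fgb was again the lowest chain. Within each Sox9cKO sample Fga was above Fgg, at 1312 against 950, 956 against 832 and 1055 against 976. Coding length was that of the longest annotated coding sequence of each gene, 2367 bases for Fga, 1443 for Fgb and 1329 for Fgg. Per kb of it the means of Fga and Fgg stood in the opposite order, 188 and 208 in Control and 1408 and 1448 in Sox9cKO. Fgg was then above Fga in every sample but Sox9cKO replicate 1, so their order rested on the length used. Fgb was again lowest at 38.9 and 461. Among 17011 genes with a length, Fga moved from place 3652 in Control to place 310 in Sox9cKO, Fgg from 4061 to 403 and Fgb from 13119 to 3306. Fgb was thus the scarcest chain transcript in both groups.

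As a share of the summed levels of the chains per kb of exon, Fgb made up 4.02%, 6.96% and 4.55% in the Control replicates and 6.54%, 8.64% and 8.83% in the Sox9cKO replicates. The mean share was 5.17% ± 1.57 in Control and 8.0% ± 1.27 in Sox9cKO, and the groups overlapped, since Control replicate 2 exceeded Sox9cKO replicate 1, while within the numbered pairs Sox9cKO was higher in 3 of 3. Fga took 49.6% ± 1.92 and 50.1% ± 3.60, and Fgg took 45.2% ± 2.03 and 41.9% ± 2.35. The size of the Fgb share depended on which length was used, because its exons sum to 3810 bases and its longest annotated coding sequence to 1443. Per kb of coding sequence, Fgb was 9.21% ± 2.67 in Control and 14.0% ± 2.02 in Sox9cKO.

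**Figure D2:**
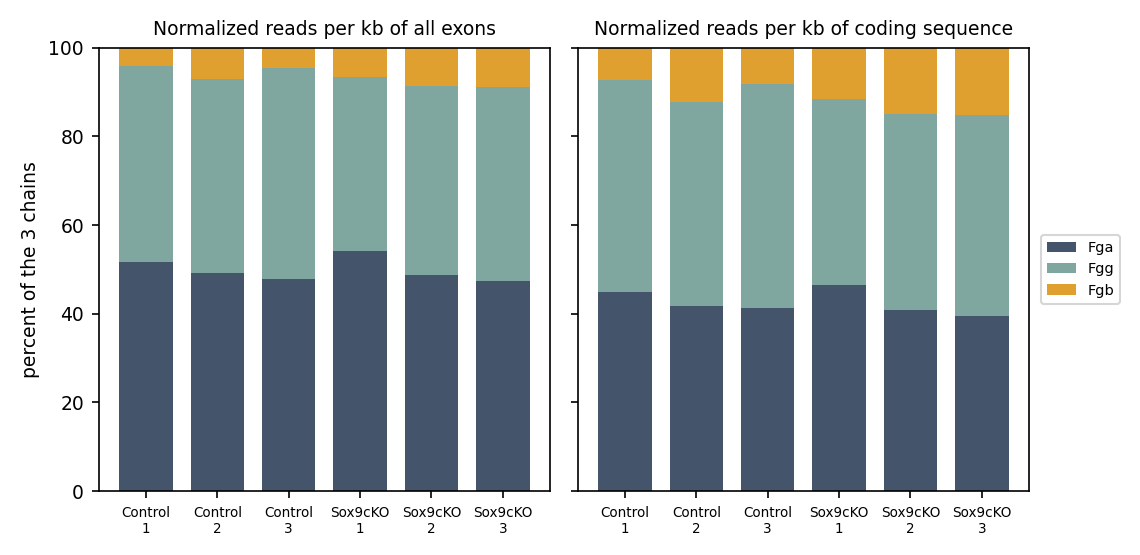
Share (percent) of each chain in the summed chain level of each sample, per kb of all exons (left) and per kb of coding sequence (right). Fga and Fgg make up most of every bar, and the Fgb share is larger with the coding length.

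Ratios between chains in a sample hardly depend on the size factor, and were taken as log2 of the normalized counts plus 1. The log2 ratio of Fgb to Fgg was -2.58, -1.78 and -2.49 in Control (-2.28 ± 0.44) and -1.72, -1.43 and -1.45 in Sox9cKO (-1.53 ± 0.16). The groups did not overlap, although the nearest samples, Control replicate 2 and Sox9cKO replicate 1, were close. The log2 ratio of Fgb to Fga was -3.33, -2.46 and -3.02 in Control and -2.71, -2.16 and -2.08 in Sox9cKO. These groups overlapped, with a difference of means of 0.62, and within the numbered pairs Sox9cKO was higher by 0.62, 0.31 and 0.94. Fga to Fgg was nearly fixed, at 0.65 ± 0.11 in Control and 0.78 ± 0.18 in Sox9cKO, a difference of 0.13 that was within the spread, although Sox9cKO was higher in 3 of 3 pairs, by 0.24, 0.036 and 0.10. The ratios use the values that chose the genes, so no test is given for them.

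Albumin, the most abundant hepatocyte secretory transcript, is given beside the chains, whose separation of the groups follows from their choice by this comparison. Its normalized counts were 27683, 17384 and 18944 in Control and 32147, 21399 and 35363 in Sox9cKO, and the groups overlapped, though Sox9cKO was the higher in 3 of 3 numbered pairs. The log2 change was 0.47 (SE 0.25, limma adjusted p = 0.380, and 0.115 with the block). Alb was also high in these biliary samples, at place 19 of 17011 per kb in Control and place 15 in Sox9cKO. The summed chains came to 4.18%, 3.97% and 2.57% of the Alb count in Control and to 20.3%, 24.6% and 16.9% in Sox9cKO. The mean log2 ratio of the chains to Alb was -6.85 ± 0.41 in Control and higher by 2.69 in Sox9cKO, without overlap.

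**Figure D3:**
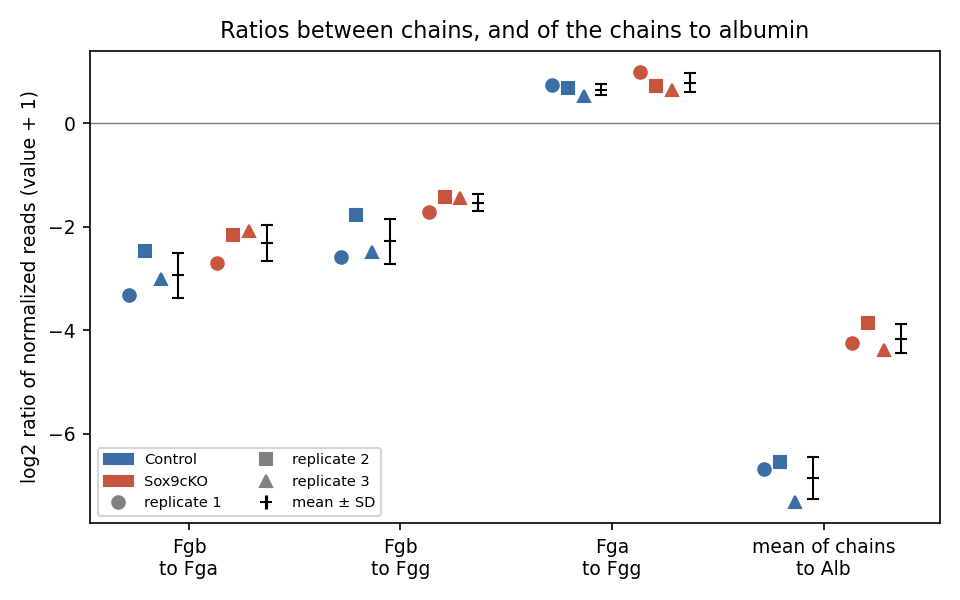
Log2 ratios of normalized reads (value + 1) between chains, and of the mean of the chains to Alb, by sample, with mean ± SD for each group (n = 3). The ratio to Alb separates the groups widely, Fgb to Fgg separates them narrowly, and the other ratios overlap.

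Markers of hepatocytes are given here because hepatocytes make fibrinogen, and the cells that these transcripts came from were not determined. Of 22 hepatocyte markers, 19 were tested and 2 had low counts. The last, listed as Tf where the mouse symbol is Trf, had no row and entered no value here. By limma 2 of the tested markers were called higher and 0 lower, beside 2.03% and 0.939% of all tested genes. The median log2 change of the 19 was 0.35, where the median of all tested genes was 0.036. The called markers were Tat, a tyrosine-degrading enzyme (91.9 ± 28.7 to 437 ± 95.6, log2 change 2.26, adjusted p = 0.00726), and Tdo2, a tryptophan-degrading enzyme (13.2 ± 4.02 to 45.9 ± 1.92, log2 change 1.76, adjusted p = 0.0321). Of the 19 tested markers, 14 had a positive log2 change. By limma 5 were at an unadjusted p under 0.05, namely Tat, Tdo2, Arg1, G6pc and Mup20, all of them higher in Sox9cKO. Ttr, which encodes the thyroxine carrier transthyretin, was among the markers with a negative log2 change, at -0.44 (adjusted p = 0.570). The summed count of the markers other than Alb ran from 1770 to 2662 in Control and from 1862 to 3232 in Sox9cKO, ranges that overlapped. Its largest member was Ttr, at 1844, 1123 and 1135 in Control and 1589, 657 and 907 in Sox9cKO. None of the marker genes with a row was at 0 in every sample.

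The labelled cell type was checked with 12 biliary markers, whose summed count was 91588 to 136137 in Control and 75668 to 104013 in Sox9cKO. By limma 1 of them was called higher, the keratin Krt7 (1948 ± 196 to 3958 ± 1018, log2 change 0.997, adjusted p = 0.0408), and 1 lower, Sox9. With the block 1 was higher and 4 lower. Endothelial markers spread over 1448 to 31678 in Control and 5237 to 32371 in Sox9cKO, with 0 of 8 called by limma, edgeR or DESeq2, 1 at an unadjusted p under 0.05, and 1 called higher with the block. Leukocyte and Kupffer cell markers were at 1058 to 1136 in Control and 1512 to 1831 in Sox9cKO, and 1 of 6 tested was called higher, the macrophage receptor Csf1r (log2 change 0.92, adjusted p = 0.0142). Csf1r itself went from 761 ± 48.9 to 1450 ± 186, whereas the other 5 tested had negative log2 changes, for a list median of -0.57, and 1 of them, the lysozyme gene Lyz2, was called lower with the block (-1.33, adjusted p = 0.243 without and 0.0417 with it). Mesenchymal markers (8 tested) and platelet markers (2 tested) had 0 calls by limma, edgeR or DESeq2, with 0 and 1 gene at an unadjusted p under 0.05. Their summed ranges were 2039 to 2650 and 131 to 184 in Control, against 2145 to 4251 and 117 to 131 in Sox9cKO. The part of other cells in the chain levels was not tested.

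The genes next to the cluster did not show the pattern of the chains. In RefSeq's order on GRCm38.p6, Fgg, Fga and Fgb lie between Lrat and Plrg1. Plrg1, a splicing factor gene beside Fgb, was at 396 ± 38.2 in Control and 394 ± 44.2 in Sox9cKO (log2 change -0.0069, limma adjusted p = 0.988). Lrat, a retinol-esterifying enzyme beside Fgg, had a log2 change of -0.81 (adjusted p = 0.376). Farther out, Rbm46 and Dchs2 had mean counts below 10 and were not tested, and Npy2r and Gm10710 were not analysed here. Gm30097, a noncoding gene annotated antisense to the start of Fgg and picked after its values were seen, was at 4.11 ± 3.81 in Control and 16.8 ± 2.09 in Sox9cKO (log2 change 2.06, adjusted p = 0.131). Whether counting used the strand is not given in the sources used here, so its reads cannot be told apart from those of Fgg.

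Profiles over the 6 samples were compared with the mean profile of the chains by the root mean square difference of centred log2 values, where a small value means a like profile. Fga (0.157) and Fgg (0.172) were nearer to that mean than Fgb (0.299), as they were to each other (0.139). The 5 nearest other genes included Plg, encoding plasminogen (0.128), Serpinf1, encoding a secreted serpin (0.170), the carboxylesterase gene Ces1c (0.185) and Serpina1c, an α1-antitrypsin gene (0.222). The median over all tested genes was 1.63. Mean counts went from 16.3 to 130 for Serpinf1, from 251 to 2154 for Ces1c and from 211 to 1802 for Serpina1c. Ces1c and Serpina1c have near-identical relatives, so their reads may be split or shared among copies. The likeness is over 6 samples that fall into 2 groups, so genes with a like difference between the groups score as alike.

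The other genes of clotting, fibrinogen synthesis and the acute phase were taken from 9 lists of 114 genes. Of these, 99 were tested, 5 had no row and 10 had low counts. By limma 19 were called higher and 0 lower, beside backgrounds of 2.03% and 0.939%. The lists were chosen with earlier results of these data known, so their counts are a description and not an independent test. At an unadjusted p under 0.05, 34 were higher and 5 lower, where 10% and 7.74% of all tested genes were. The calls were 19 higher and 0 lower with edgeR (1.82% and 1.04% of all genes), and 28 higher and 2 lower with DESeq2 (4.77% and 2.47%). With the block they were 27 higher and 3 lower (5.06% and 2.99%). Counts and medians of single lists below are limma's unless another tool is named.

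Among 15 coagulation factors, 12 were tested, 4 were called higher and 0 lower, and 6 higher with the block, with a median log2 change of 1.24. F2, encoding prothrombin, the source of the enzyme that cuts fibrinogen, went from 52.3 ± 3.40 to 171 ± 26.8 (log2 change 1.68, limma adjusted p = 0.00710). F12, the factor that starts the contact pathway, went from 22.6 ± 9.54 to 419 ± 122 (4.19, adjusted p = 0.00333). Kng2, a kininogen gene with a close paralog, changed by 3.67 (adjusted p = 0.00745), and Klkb1, encoding plasma prekallikrein, by 2.58 (adjusted p = 0.0360). Others did not pass the test: F3, encoding tissue factor, was abundant at 12337 ± 2097 and 13238 ± 3317 (log2 change 0.087, adjusted p = 0.874), and F7, whose product binds it, was at -0.73 (adjusted p = 0.570). The calls gained with the block were Kng1, the other kininogen gene (1.37, adjusted p = 0.127 without and 0.0402 with it), and Vwf, encoding von Willebrand factor (0.72, 0.208 and 0.0420).

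Of 10 anticoagulants tested, 2 were called higher and 0 lower, with a median of 0.30. They were Serpind1, encoding the thrombin inhibitor heparin cofactor II (29.0 ± 7.48 to 182 ± 60.3, log2 change 2.58, limma adjusted p = 0.00969), and Serpina10, encoding the protein Z-dependent protease inhibitor (2.31, adjusted p = 0.0272). Serpinc1, encoding antithrombin, was at -0.45 (adjusted p = 0.313) and Proc, encoding protein C, at -0.045 (adjusted p = 0.884).

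Fibrinolysis genes had 4 of 11 tested called higher and 0 lower, and 7 higher with the block, with a median of 1.67. Plg, whose product plasmin digests fibrin, was at 146, 120 and 74.9 in Control and at 1025, 847 and 1224 in Sox9cKO (log2 change 3.21, limma adjusted p = 0.00319), with no overlap. Genes acting in both directions on the system were higher, among them the plasminogen activator Plau (1.83, adjusted p = 0.0277) and the plasmin inhibitor Serpinf2 (2.26, adjusted p = 0.0458). Calls gained with the block were Plat (tissue plasminogen activator, 1.67), Serpine2 (a protease inhibitor, 0.99) and Cpb2 (the inhibitor that trims fibrin, 3.43), at adjusted p of 0.00123, 0.0280 and 0.0335 against 0.0721, 0.0640 and 0.0535 without it.

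Fibrinogen receptors and matrix partners showed 2 of 13 called higher and 0 lower, and 3 higher and 1 lower with the block, with a median of 0.13. Vtn, encoding the plasma adhesive protein vitronectin, went from 535 ± 211 to 9432 ± 1408 (log2 change 4.22, limma adjusted p = 0.00173). Fn1, encoding fibronectin, which is cross-linked to fibrin, went from 11789 ± 1894 to 43438 ± 2253 (1.89, adjusted p = 0.00261). With the block, the cross-linking enzyme gene Tgm2 (0.75, adjusted p = 0.0845 without and 0.00681 with it) was called higher and the leukocyte integrin gene Itgax (-1.58, 0.176 and 0.0191) lower. Itgav, Itgb1 and Itga5, encoding integrin chains, had log2 changes of 0.43, 0.13 and 0.055 and did not pass. Other proteins with a fibrinogen-like domain gave 0 calls among 3 tested by limma, edgeR or DESeq2, and 0 at an unadjusted p under 0.05. Of these, Fgl2, encoding a prothrombinase, was at 30.1 ± 16.4 and 60.4 ± 33.9 (adjusted p = 0.402).

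Of 12 tested genes of the acute phase list, to which fibrinogen is usually counted, limma called 6 higher and 0 lower, with a median of 1.52, and DESeq2 called 7 higher and 1 lower. Hp, encoding the haemoglobin-binding protein haptoglobin, went from 25.6 ± 2.55 to 2499 ± 1165 (log2 change 6.46, limma adjusted p = 0.000735), Hpx, encoding the haem carrier hemopexin, from 64.3 ± 19.3 to 1614 ± 958 (4.50, adjusted p = 0.00368), and Itih4, encoding an inter-α-trypsin inhibitor heavy chain, from 101 ± 17.8 to 979 ± 401 (3.19, adjusted p = 0.00445). The other calls were C3, Lcn2 and Lbp (2.22, 1.98 and 1.79). Saa1, Saa2 and Saa3, the serum amyloid A genes, had mean counts below 10. Cp, encoding the copper carrier ceruloplasmin, was abundant, at 20809 ± 971 in Control and 13708 ± 2472 in Sox9cKO (-0.62, adjusted p = 0.0980, and 0.0142 to 0.299 over the alternatives). Crp, encoding C-reactive protein, was at -0.30 (adjusted p = 0.622).

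Of 16 tested genes of interleukin-6 and glucocorticoid signalling, 1 was called higher and 0 lower, and 2 higher and 1 lower with the block, with a median of 0.16. Il6ra, encoding the ligand-binding receptor chain, went from 119 ± 11.6 to 262 ± 47.1 (log2 change 1.12, limma adjusted p = 0.0275). Under the block Il6 (2.13, adjusted p = 0.171 without and 0.0231 with it) was called higher and Stat3, the transcription factor downstream of the receptor (-0.46, 0.218 and 0.0432), lower. Of 14 transcription factors with known roles at liver genes, 0 were called by limma or edgeR, 3 had an unadjusted p under 0.05, and DESeq2 called 1 higher and 1 lower, as did limma with the block. Hnf4a was at 5150 ± 1269 and 8560 ± 1532 (0.75, adjusted p = 0.131, and 0.0170 with the block). Of 8 chaperone and disulfide-forming genes of the endoplasmic reticulum, 0 were called by limma or edgeR and 1 by DESeq2, with 2 at an unadjusted p under 0.05 and a median of 0.26. Hspa5, encoding the chaperone BiP, was at 11645 ± 1064 and 10652 ± 1862 (-0.14, adjusted p = 0.700).

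Some calls in the lists ended when a single sample was left out, among them those of Csf1r, Il6ra, Klkb1, Krt7, Lbp, Plau, Serpina10, Serpinf2 and Tdo2, whose limma adjusted p then reached 0.0536 to 0.153. Without Control replicate 1 all of these but Serpina10 were lost, and without Control replicate 3 all but Lbp. Leaving out Control replicate 2 ended the calls of Il6ra, Krt7 and Tdo2. Without Sox9cKO replicate 1 those of Krt7, Lbp, Plau, Serpina10, Serpinf2 and Tdo2 ended. Without Sox9cKO replicate 2 those of Csf1r, Il6ra, Klkb1, Plau, Serpina10 and Tdo2 ended, and without replicate 3 all but Csf1r. Without the intensity trend Krt7, Lbp, Plau, Serpina10 and Serpinf2 did not pass, Il6ra did not under quantile normalization (adjusted p = 0.0591), and Serpinf2 did not at a minimum mean of 50 (adjusted p = 0.0521).

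**Figure D4:**
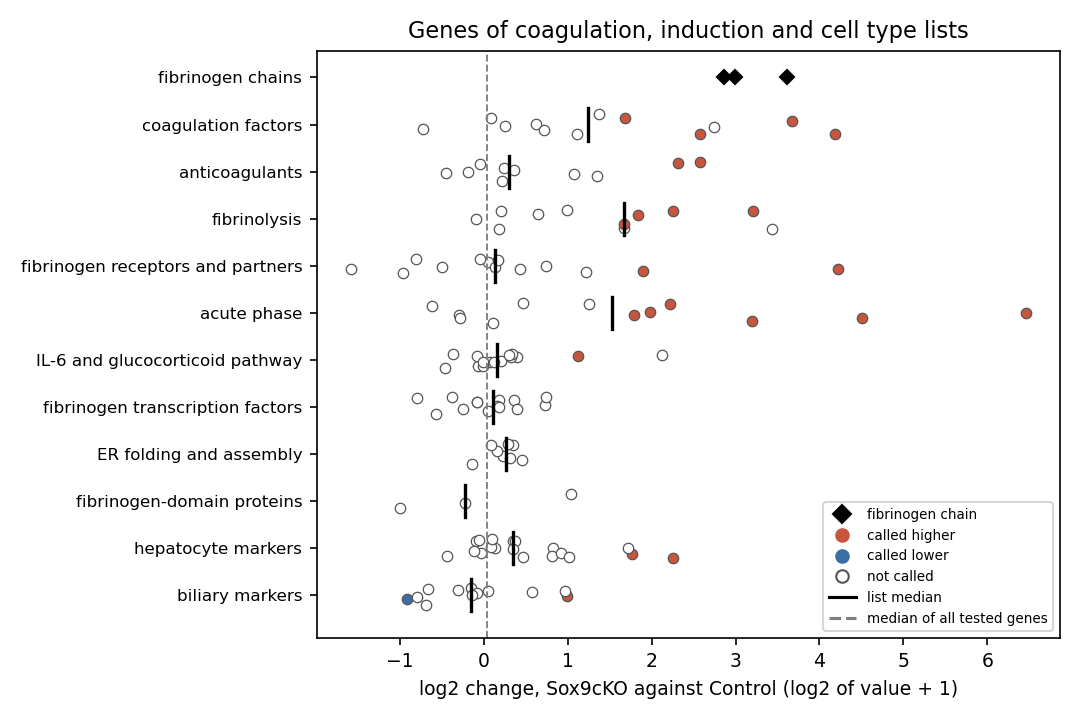
Log2 change, Sox9cKO against Control, of each tested gene in the lists (circles, filled where called), with list medians as bars, the chains as diamonds and the median of all tested genes (0.036) as a dashed line. The chains lie between 2.87 and 3.62, while most genes of the transcription factor, endoplasmic reticulum and interleukin-6 lists lie near 0.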

How the data were processed

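RNA from 6 samples of biliary epithelial cells was converted to stranded libraries with molecular identifiers after removal of ribosomal RNA, per the labels' protocols. The values deposited by the authors are a signal: read counts per gene, divided within a sample by a common size factor, judging from the steps between the values. The submitters' processing notes name GRCm39 and DESeq2 1.36.0; the aligner, the annotation and any use of the molecular identifiers or strand are not given in the sources used here. Dividing by each sample's step (size factors 0.868 to 1.19) gave whole reads for 100% of values (tolerance 0.001 reads). Every gene had at least 10 reads in all, so rarer genes were not analysed here.

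Values were tested with limma 3.58.1 (R 4.3.3, intensity trend) on log2(value + 1), a pseudocount of 1, for genes with a mean of at least 10, and adjusted over all 17153 genes. Other pseudocounts, filters, normalizations, edgeR 4.0.16 and DESeq2 1.42.0 on the whole reads, a replicate block and leaving out each sample were alternatives. The fits were tested on simulated data. Replicate numbers come from the labels, and samples sharing a number deviated together (correlations 0.207, 0.472 and 0.542 across genes). The labels do not state that these samples are pairs, and samples with different numbers were not compared in this way. The numbers were taken as pairs only in the block fits and the pair differences, which rest on that assumption. SEs and p-values are unpaired unless the block is named. With the block the SEs of the chains were 0.19 for Fga, 0.28 for Fgb and 0.21 for Fgg. Gene lengths came from GENCODE M21 and promoters and gene order from RefSeq's GRCm38.p6 tables, none of them the build of the counts, so no gene coordinates are given for expression. Genes were matched by symbol, and no listed or named gene had a symbol on more than 1 row. The 3 chains, the lists and the tests were chosen with earlier results of these data known. Named genes were the chains, Sox9, the 3 nearest protein-coding genes on each side, up to 3 called genes with the smallest p in each list or otherwise its most abundant tested gene, Alb and 2 further hepatocyte markers, and the 5 genes with the most similar profile. Some genes under this rule are not reported here. Other names in the lists were chosen after their values were seen.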

Additional observations from a re-analysis of the deposited data

How the results depend on the processing

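The chains were chosen by this comparison, so their values under other settings are a description. Leaving out 1 sample gave log2 changes of 2.69 to 3.36 for Fga, 3.27 to 3.80 for Fgb and 2.62 to 3.19 for Fgg. The count of called genes, 510 here, was 1381 with the replicate block, 1160 with edgeR and the replicate block, 1240 with DESeq2, and 200 (without Control replicate 1) to 389 (without Control replicate 2) when a sample was left out, where a smaller design has fewer degrees of freedom. List medians that moved by more than the spread between replicates were 1.33 for fibrinolysis and 0.42 for the acute phase without a filter, and 0.30 for receptors and partners and 1.98 for the acute phase at a minimum mean of 50. Leaving out a sample gave medians of 0.97 to 1.58 for coagulation factors, 0.084 to 0.94 for anticoagulants (both highest without Sox9cKO replicate 3) and 1.27 to 1.84 for fibrinolysis (lowest without Control replicate 1). Smaller medians moved by over 1.5 times: 0.070 to 0.36 for the interleukin-6 list (0.068 with quantile normalization), 0.13 to 0.33 for the endoplasmic reticulum list and 0.056 to 0.19 for receptors and partners (0.015 with quantile normalization) when a sample was left out, and 0.65 for anticoagulants at a minimum mean of 50. The fibrinogen-domain median changed sign among alternatives (from -0.53 to 0.53 when a sample was left out), had no call in any, and gave no value at the minimum mean of 50. The transcription factor median was -0.017 with quantile normalization and 0.039 to 0.19 when a sample was left out. Among 33 other named genes, 518 results kept their side of the threshold, 37 lost a call, 3 gained one (Hnf4a) and 0 reversed.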
